A study of Mus musculus with 42 samples.

Results

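The erythroid lineage genes are 34 genes of the forming red cell, taken by symbol: transcription factors and the erythropoietin receptor, globins and their chaperone, the membrane skeleton with its anion exchanger, surface antigens with a water channel, and enzymes. Of these, 31 had at least 1 array feature that carried their symbol alone, 46 features in all, among the 15277 genes and 30601 features of the arrays. Ahsp, Epb41 and Gypc were not analysed here. The other 31 are all described below, each as the mean over its features.

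Red cells form from progenitors under the transcription factor GATA1, which acts in complexes with TAL1, LMO2 and the cofactor FOG1 (Zfpm1), and under KLF1, while erythropoietin keeps the progenitors alive through its receptor. Regulators and blood group antigens such as Kel come on early in this programme, whereas globin, the anion exchanger band 3 and the spectrin skeleton accumulate as the cell matures, and mouse red cells lose the nucleus last. In mice the spleen is an erythropoietic organ throughout life and expands its erythroblasts under stress, so its RNA carries this programme beside that of lymphocytes and macrophages.

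Spleens of female wild-type BALB/c mice (age not given in the sources used here) were profiled on 42 arrays in 10 groups. Mice received 400 µg of CpG oligodeoxynucleotides (ODN 1555 and 1466 in equal molar amounts, ligands of the endosomal receptor TLR9) by intraperitoneal injection, and their spleens were collected at 8 times: 3 h, 9 h, 24 h, 72 h, then on days 5, 7, 9 and 14. A control mixture (ODN 1612 and 1471, the same dose) was given for 3 h, and 6 mice were untreated, without injection. Each other group had 4 arrays, which the series calls independent biological replicates, and control ODN was measured at 3 h alone.

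Every value is a log2 ratio of spleen over a common mouse reference RNA, with base and direction inferred from the values. A ratio compares 1 gene between groups, and no gene's ratio is set against another gene's as a level. The ± after a difference is its standard error in limma's fit of all arrays, the adjusted p is Benjamini-Hochberg over all genes tested, and a gene is called at an adjusted p below 0.05. Between 173 and 1740 of the features had no value on an array. Markers of pancreas acinar cells, a tissue beside the spleen, varied widely within groups (mean log2 ratio 0.51 to 5.41 in untreated spleens and 0.36 to 4.55 at CpG 24 h), 0 of their 13 measured genes were called in any comparison, and their part in the results was not tested. Arrays with neighbouring database numbers, here called runs, held 1 to 4 groups each. No array of 72 h, 5 days, 7 days, 9 days, 14 days or control ODN shares a run with an untreated array, so run and group cannot be told apart in those comparisons with untreated spleens. The same holds for CpG ODN against control ODN at 3 h, since these groups share no run. CpG 24 h is tied to untreated spleens through the CpG 3 h arrays alone, which share 1 run with 1 untreated array and another with 9 h and 24 h.

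The promoters of 6 members with different time courses are shown here, with GATA motifs and CACCC motifs of the kind KLF1 binds in capitals. RefSeq (GRCm38.p6) gave 25 promoters for 22 of the 34 members, each running from 250 bases before the start to 50 after it. The other 12 members are Lmo2, Nfe2, Hbb-b1, Ahsp, Slc4a1, Ank1, Dmtn, Gypc, Cldn13, Cd24a, Car1 and Car2. Both strands were searched for the GATA motif AGATAA, its forms with a final G instead (AGATAG), with a leading T instead (TGATAA) and with both (TGATAG), and for the CACCC motif CCNCNCCC, and overlapping matches were counted separately. A GATA match stood in 64.0% of the member promoters and in 29.8% of all 32851 promoters of the table, a CACCC match in 68.0% against 49.5%, and both in 32.0% against 10.2%. A match is a stretch of letters and was not tested as a site. Of the 6 printed, Gata1, Klf1, Kel and Icam4 were higher at 72 h, Aqp1 fell at 24 h, and Hba-a1 was called in no comparison.
Gata1, chrX:7967861-7968160, minus strand: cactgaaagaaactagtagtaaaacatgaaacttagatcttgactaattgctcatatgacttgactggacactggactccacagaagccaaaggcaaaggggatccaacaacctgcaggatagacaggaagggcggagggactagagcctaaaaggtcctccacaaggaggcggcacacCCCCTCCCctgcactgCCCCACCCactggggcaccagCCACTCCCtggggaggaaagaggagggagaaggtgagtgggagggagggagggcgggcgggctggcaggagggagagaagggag
Klf1, chr8:84901732-84902031, plus strand: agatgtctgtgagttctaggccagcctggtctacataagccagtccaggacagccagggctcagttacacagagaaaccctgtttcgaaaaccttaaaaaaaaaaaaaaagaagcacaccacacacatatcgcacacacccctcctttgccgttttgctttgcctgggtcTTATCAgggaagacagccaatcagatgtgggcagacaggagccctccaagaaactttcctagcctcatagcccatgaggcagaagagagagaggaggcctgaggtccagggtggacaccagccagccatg
Kel, chr6:41704276-41704575, minus strand: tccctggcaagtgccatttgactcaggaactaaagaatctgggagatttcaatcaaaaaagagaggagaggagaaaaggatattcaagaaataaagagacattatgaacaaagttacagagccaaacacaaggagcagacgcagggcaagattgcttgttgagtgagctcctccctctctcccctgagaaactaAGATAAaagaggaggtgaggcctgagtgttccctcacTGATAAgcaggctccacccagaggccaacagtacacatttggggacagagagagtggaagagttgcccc
Icam4, chr9:21029182-21029481, plus strand: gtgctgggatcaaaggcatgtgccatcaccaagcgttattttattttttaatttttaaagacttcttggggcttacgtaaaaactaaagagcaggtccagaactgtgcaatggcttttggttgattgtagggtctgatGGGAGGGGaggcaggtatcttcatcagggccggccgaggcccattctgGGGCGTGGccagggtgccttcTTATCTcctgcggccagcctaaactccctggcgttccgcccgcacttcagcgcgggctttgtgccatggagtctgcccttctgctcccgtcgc
Aqp1, chr6:55336049-55336348, plus strand: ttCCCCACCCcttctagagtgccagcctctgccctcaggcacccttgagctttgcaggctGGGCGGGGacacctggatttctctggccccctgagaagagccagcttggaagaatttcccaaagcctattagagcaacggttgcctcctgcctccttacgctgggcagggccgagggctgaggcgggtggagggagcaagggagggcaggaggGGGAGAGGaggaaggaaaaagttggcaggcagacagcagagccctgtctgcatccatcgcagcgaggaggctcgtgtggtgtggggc
Hba-a1, chr11:32283422-32283721, plus strand: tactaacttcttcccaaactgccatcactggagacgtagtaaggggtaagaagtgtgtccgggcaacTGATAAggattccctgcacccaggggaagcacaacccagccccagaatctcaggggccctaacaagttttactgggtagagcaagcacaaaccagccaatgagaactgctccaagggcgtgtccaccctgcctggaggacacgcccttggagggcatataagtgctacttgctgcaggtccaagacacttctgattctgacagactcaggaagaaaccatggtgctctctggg
Kel held 2 GATA matches, starting 56 and 19 bases before the start and both on the gene's strand. In Klf1 and Hba-a1 the only match was 1 GATA, 80 and 183 bases before the start. Gata1 and Aqp1 held 3 CACCC matches each and no GATA match, while Icam4 held 1 GATA and 2 CACCC matches.

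Members were called lower but not higher 24 h after CpG ODN, and higher but not lower from 72 h to 9 days. At 14 days 0 of 31 were called, which is near the background of 2.77% higher and 1.77% lower. At 24 h, 11 of 31 were lower than in untreated spleens and 0 higher, where 2.87% of all genes tested were lower and 8.03% higher. From 72 h to 9 days all calls were upward: 12 of 31 at 72 h (background 8.94% higher, 6.01% lower), 16 of 31 at 5 days (17.5% and 13.4%), 14 of 31 at 7 days (8.68% and 6.89%) and 18 of 30 at 9 days (8.4% and 5.12%). Since the tissue was measured in bulk, fewer cells of the lineage and less of the RNA in each cell cannot be told apart. All these comparisons share the 6 untreated arrays.

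The median difference over the members was -0.78 at 24 h, against 0.02 over all genes. It was 0.67 at 72 h, 0.65 at 5 days, 0.66 at 7 days and 0.80 at 9 days, with medians over all genes between -0.02 and 0.02. Of the 10 group means of each member, the lowest was that of CpG 24 h for 23 of 31 members (74.2%), which held for 9.38% of 15235 genes. The highest was that of 5 days for 11 members (35.5%), of 9 days for 8 (25.8%) and of 7 days for 5 (16.1%), and of untreated spleens for 0. Over all genes these shares were 13.9%, 11.0%, 7.99% and 4.54%, so the count for untreated spleens is near its background. The mean of the 27 members measured on every array ran from 1.81 to 2.36 at 24 h, below all untreated arrays (2.47 to 3.09), and from 3.25 to 3.58 at 5 days, above all of them. At 72 h it ran from 2.78 to 3.61, and the fourth array (2.78) lay within the untreated range. At 7 days it ran from 3.12 to 3.52 and at 9 days from 3.15 to 3.80, above all untreated arrays.

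**Figure D1:**
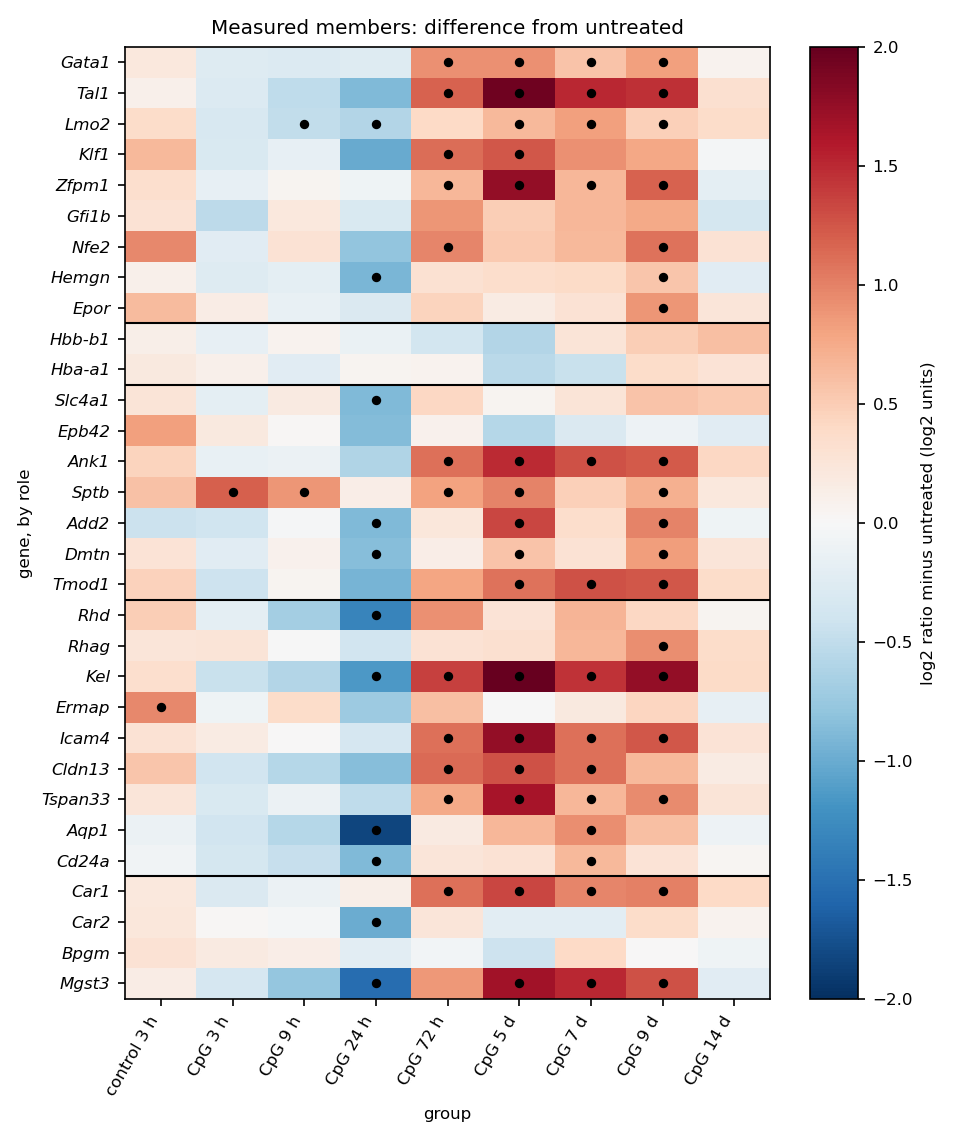
Difference in log2 ratio from untreated spleens for the 31 measured members (rows, by role, separated by lines) in each group (columns); red is higher, blue lower, and a dot marks an adjusted p below 0.05. The CpG 24 h column is blue for 28 of 31 members, the columns from 72 h to 9 days are mostly red, and the 2 globins (second block) carry no dot.

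Before and after these times few members were called. At 3 h 1 of 31 members was higher and 0 lower (background 7.7% and 3.93%), and at 9 h 1 was higher and 1 lower (5.07% and 3.45%). These shares are near or below the background. The mean of the 27 members with a value on every array was 2.71 in untreated spleens, 2.59 at 3 h and 2.61 at 9 h. Within the 1 run that holds both groups, 28 of 31 members were lower on 2 arrays of 3 h than on 1 untreated array (median -0.70). The share of all genes lower there was not computed. That untreated array had the highest member mean (3.09) of the untreated arrays, which ran from 2.47 to 3.09. The 2 arrays of 3 h in that run had member means of 2.47 and 2.46. At 14 days 0 of 31 members were called by limma, near the background of 2.77% higher and 1.77% lower. There 2 had an unadjusted p below 0.05 in limma, and the median difference was 0.22.

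Called upward at all 4 times from 72 h to 9 days were 8 members, namely Gata1, Tal1, Zfpm1, Ank1, Kel, Icam4, Tspan33 and Car1. Another 14 were called at 1 to 3 of these times, and 9 at none: Gfi1b, Hbb-b1, Hba-a1, Slc4a1, Epb42, Rhd, Ermap, Car2 and Bpgm. Of the members lower at 24 h, 8 were also called higher later (Lmo2, Hemgn, Add2, Dmtn, Kel, Aqp1, Cd24a and Mgst3), and the other 3 were not (Slc4a1, Rhd and Car2). The calls at all 4 times were not equally stable under other processing or with 1 array left out. Gata1 lost its call at 7 days under 11 of 20 such settings. Zfpm1 lost those at 72 h and 7 days under 9 and 10 of 20, and Tspan33 under 9 and 10 of 18. Icam4 kept its call under all of them.

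**Figure D2:**
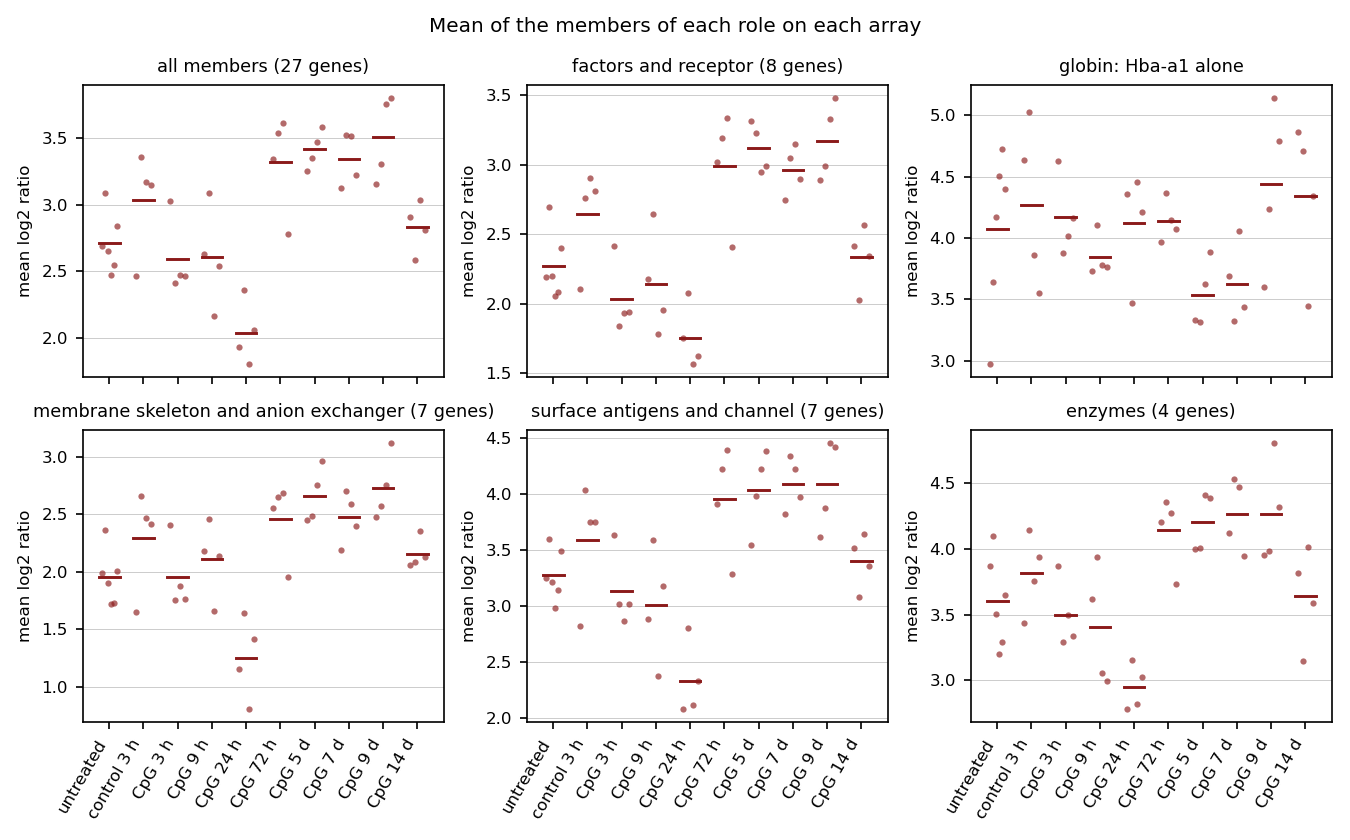
Mean log2 ratio over the members of each role that have a value on every array (vertical axis), 1 point per array and a bar at the group mean. The group mean of CpG 24 h is the lowest in every panel but that of the globin Hba-a1. Outside that panel the group means from 72 h to 9 days lie above the untreated mean, but the fourth array of 72 h lies within the untreated range.

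Among the factors, Gata1, Tal1 and Zfpm1 were called higher at all 4 times from 72 h to 9 days, and Lmo2 at 5, 7 and 9 days. Of 9 factors and receptor genes, 5 were higher at 72 h, 5 at 5 days, 4 at 7 days and 7 at 9 days, with medians of 0.88, 0.65, 0.66 and 0.83, and 2 were lower at 24 h (median -0.59). Several of them, Gata1, Tal1, Zfpm1, Gfi1b and Nfe2 among them, are also expressed in megakaryocytes, whose list is given further on. Over all genes tested, 8.94% were higher at 72 h, 17.5% at 5 days, 8.68% at 7 days and 8.4% at 9 days. At 24 h 2.87% were lower. The counts of the other roles and lists below stand beside the same shares.

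Gata1, the master zinc finger factor of the lineage, had log2 ratios of 1.89 to 2.38 (median 2.09) in untreated spleens. They were 1.64, 1.79, 2.11 and 1.85 at 24 h, 3.08, 3.27, 3.46 and 2.28 at 72 h and 2.58, 2.73, 3.38 and 3.40 at 5 days. The 24 h values overlapped the untreated range, 3 of 4 arrays at 72 h lay above it, and all 4 did at 5 days. The differences were -0.27 ± 0.20 (adjusted p = 0.427) at 24 h, 0.91 ± 0.20 (adjusted p = 0.00201) at 72 h and 0.91 ± 0.20 (adjusted p = 0.000574) at 5 days. At 7 days it was 2.37, 2.60, 2.85 and 2.88 and at 9 days 2.81, 2.68, 3.11 and 3.15, differences of 0.57 ± 0.20 (adjusted p = 0.0461) and 0.83 ± 0.20 (adjusted p = 0.00413). The 14-day arrays, 2.47, 2.28, 2.20 and 1.77, were back within or near the untreated range.

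Tal1, the basic helix-loop-helix partner of GATA1, gave the largest rise of the role at 5 days, 7 days and 9 days. Untreated spleens had 2.02 to 3.54 (median 2.71), against 1.57, 1.89, 1.89 and 2.03 at 24 h and 4.74, 4.52, 4.92 and 4.53 at 5 days. Every array of 5 days was higher than every untreated array, while the 24 h arrays overlapped them and lay tightly together. The difference at 5 days was 1.95 ± 0.33 (adjusted p = 3.07e-05), after 1.18 ± 0.33 (adjusted p = 0.0133) at 72 h, and at 24 h -0.88 ± 0.33 (adjusted p = 0.0772). On the arrays of 7 days Tal1 was 3.90, 4.27, 4.39 and 4.36, 1.51 ± 0.33 (adjusted p = 0.00134) above untreated, and on those of 9 days 3.66, 3.78, 4.67 and 4.61, 1.46 ± 0.33 (adjusted p = 0.00239) above it.

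Klf1, the activator of adult beta globin, was 4.33 to 6.31 (median 5.22) in untreated spleens, 3.89, 5.00, 3.68 and 4.11 at 24 h and 6.69, 6.85, 6.76 and 4.86 at 72 h. The fourth array of 72 h lay apart below the other 3, and the untreated and 24 h arrays overlapped. The rise at 72 h was 1.11 ± 0.39 (adjusted p = 0.0456), and at 5 days, where 3 arrays had a value (6.03, 6.52 and 6.70), it was 1.24 ± 0.42 (adjusted p = 0.0238). Under other processing or with 1 array left out, the call at 72 h was lost in 12 of 18 settings and that at 5 days in 3 of 15. At 24 h the difference was -1.01 ± 0.39 (adjusted p = 0.0862), and at 7 and 9 days 0.91 ± 0.39 (adjusted p = 0.106) and 0.77 ± 0.39 (adjusted p = 0.187).

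Zfpm1, the FOG1 cofactor of GATA1, was called from 72 h to 9 days, with 0.67 ± 0.22 (adjusted p = 0.0352) at 72 h and a peak of 1.76 ± 0.22 (adjusted p = 3.75e-07) at 5 days, and its difference at 24 h was -0.09 ± 0.22 (adjusted p = 0.843). Lmo2, the bridging protein of the TAL1 complex, was the 1 member called lower at 9 h (-0.49 ± 0.16, adjusted p = 0.0406) and was also lower at 24 h (-0.59 ± 0.16, adjusted p = 0.0105). Its arrays were 2.86 to 3.30 (median 3.01) in untreated spleens, 2.25, 2.82, 2.44 and 2.28 at 24 h and 3.46, 3.92, 4.06 and 3.95 at 7 days. The 24 h arrays lay below every untreated array and the 7-day arrays above every one. At 7 days the rise was 0.81 ± 0.16 (adjusted p = 0.000405).

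Nfe2, the p45 subunit of a factor that binds globin control regions, was higher at 72 h (0.97 ± 0.30, adjusted p = 0.0229) and 9 days (1.08 ± 0.30, adjusted p = 0.0116). Its 9-day arrays were 4.72, 5.21, 5.46 and 5.85 against 3.63 to 4.92 (median 4.11) untreated, so the lowest of them lay within the untreated range. Hemgn, a nuclear protein of blood-forming cells, fell at 24 h by 0.91 on the log2 scale (adjusted p = 0.000538) and was called higher at 9 days (0.55 ± 0.18, adjusted p = 0.0354). Gfi1b, a repressor needed in erythroid and megakaryocytic cells, was called at no time. At 5 days its arrays were 4.68, 4.61, 1.12 and 4.35, so that 1 array lay far below the others, and its difference was 0.49 ± 0.42 (adjusted p = 0.404).

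Epor, the erythropoietin receptor, had 2 features that parted. The first, with the higher mean ratio over all arrays (3.43), was 2.38 to 3.56 (median 2.90) in untreated spleens, 4.45, 4.88, 4.39 and 2.65 at 72 h and 4.42, 4.71 and 4.62 on the 3 arrays of 5 days with a value. All 3 of those lay above every untreated array. It rose at 72 h by 1.16 (adjusted p = 0.0134), at 5 days by 1.65 (adjusted p = 0.000469) and at 9 days by 1.16 (adjusted p = 0.0122), in tests adjusted over all features. The second had a mean ratio of -0.72 and a difference of 0.01 (adjusted p = 0.975) at 5 days. The mean of both was 2.05, 1.91, 1.80 and -0.79 at 5 days, where the fourth array lacks the first feature and its value is the second's alone, and the difference of these means, 0.16 ± 0.30 (adjusted p = 0.72), carries that gap. At 9 days, with both features on every array, the mean was higher by 0.88 ± 0.30 (adjusted p = 0.0439).

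The globins were called in no comparison, of the 13 for Hba-a1 and the 12 that tested Hbb-b1. Hbb-b1, an adult beta chain gene, was 6.18 to 7.82 (median 6.48) in untreated spleens, 5.99, 6.68, 7.12 and 6.99 at 24 h, 6.63, 6.63, 5.65 and 6.96 at 72 h and 5.86, 5.58 and 7.30 on 3 arrays of 5 days. All these groups overlapped. The differences were -0.13 ± 0.39 (adjusted p = 0.869) at 24 h and -0.58 ± 0.43 (adjusted p = 0.318) at 5 days, and at 9 days, with values of 7.61 and 7.02 on 2 arrays, it was not tested. Its spread was wide already without treatment, with an untreated mean of 6.83 ± 0.78 (SD, n = 6), and probes of its close copies may share its signal.

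Hba-a1, an alpha chain gene with a near-identical neighbour from which a feature may not tell it apart, was 2.98 to 4.73 (median 4.29) in untreated spleens and 4.36, 3.47, 4.46 and 4.21 at 24 h. At 5 days it was 3.33, 3.31, 3.63 and 3.89 and at 9 days 3.60, 4.24, 5.14 and 4.79. All 3 groups overlapped the untreated range. Its differences were 0.05 ± 0.30 (adjusted p = 0.933) at 24 h, -0.53 ± 0.30 (adjusted p = 0.176) at 5 days and 0.37 ± 0.30 (adjusted p = 0.449) at 9 days. A miss of the threshold does not show that the globins did not change.

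**Figure D3:**
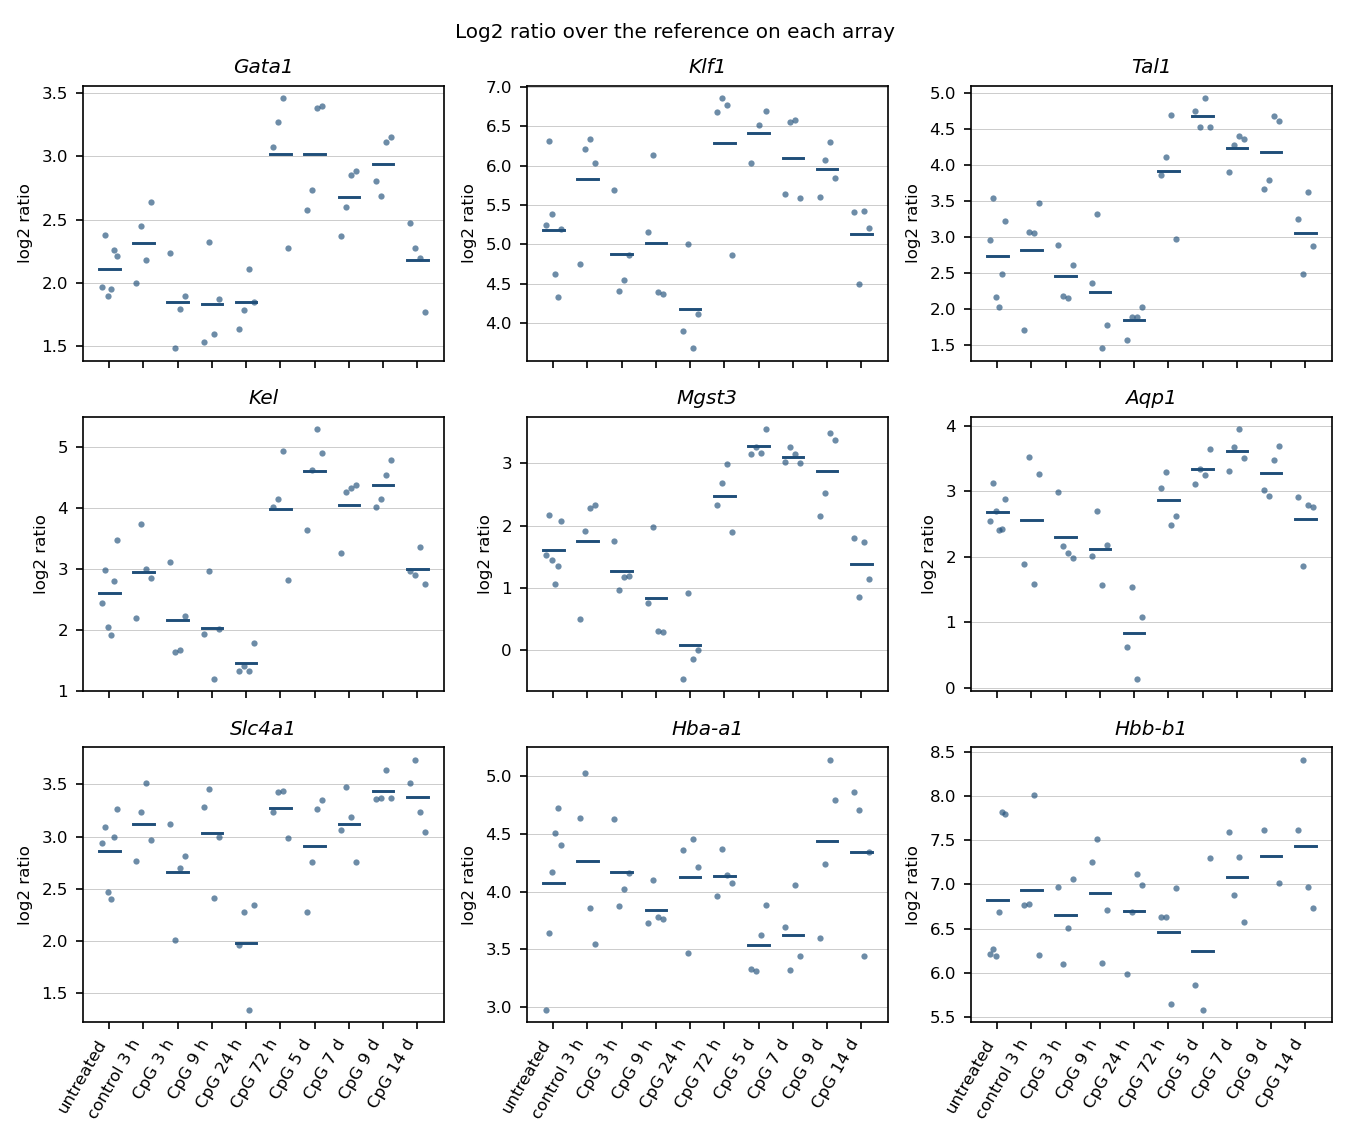
Log2 ratio over the reference (vertical axis, scaled for each gene) of 9 members on each array, with 1 point per array and a bar at the group mean. Kel and Mgst3 dip at 24 h, and their group means stand high with that of Tal1 from 5 to 9 days. At 72 h Mgst3 was not called, and Kel has 1 array of 72 h and 1 of 7 days within the untreated range. Slc4a1 dips at 24 h, spans the untreated range at 5 days and lies above it on all 4 arrays of 9 days. The 2 globins scatter around the untreated level.

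Of 7 measured genes of the membrane skeleton with its anion exchanger, 3 were lower at 24 h (median -0.87), 2 were higher at 72 h, 5 at 5 days, 2 at 7 days and 5 at 9 days (medians 0.41, 0.99, 0.36 and 0.83). Sptb is counted at 72 h, 5 days and 9 days, when only 1 of its 2 features was called, as given below. The later calls of factors at 72 h (5 of 9) and of membrane genes (2 of 7) were not tested against each other. Slc4a1, the anion exchanger band 3 that anchors the skeleton, was 2.40 to 3.26 (median 2.97) in untreated spleens, 1.96, 2.27, 1.34 and 2.35 at 24 h and 2.28, 2.76, 3.26 and 3.35 at 5 days. All arrays of 24 h lay below all untreated arrays, and those of 5 days spanned their range. The fall was -0.88 ± 0.23 (adjusted p = 0.00874) and the later differences 0.05 ± 0.23 (adjusted p = 0.879) at 5 days and 0.57 ± 0.23 (adjusted p = 0.0879) at 9 days, where its arrays (3.37, 3.37, 3.63 and 3.37) all lay above the untreated ones.

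Epb42, protein 4.2, which binds band 3, was called in none of the 13 comparisons. It was 3.61 to 4.96 (median 4.48) in untreated spleens, 3.13, 4.63, 2.75 and 3.51 at 24 h and 3.83, 3.21, 4.20 and 4.00 at 5 days, with differences of -0.87 ± 0.35 (adjusted p = 0.102) and -0.56 ± 0.35 (adjusted p = 0.225). Ank1, the ankyrin that ties band 3 to spectrin, did rise. It was 1.18 to 2.22 (median 1.60) in untreated spleens, 2.76, 2.87, 3.24 and 2.01 at 72 h and 3.24, 2.98, 3.10 and 3.18 at 5 days. The 5-day arrays lay within a narrow band above every untreated array, while at 72 h 1 array was within the untreated range. The differences were 1.09 ± 0.24 (adjusted p = 0.00252) at 72 h, 1.50 ± 0.24 (adjusted p = 1.95e-05) at 5 days and 1.23 ± 0.24 (adjusted p = 0.00074) at 9 days. A feature of Ank1 near a ratio of 0 had no value on 1 array each of 72 h, 7 days and 14 days, where the mean rests on the other 3.

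Add2, the beta subunit of adducin, and Dmtn, dematin, which both bundle actin at the skeleton's junctions, fell at 24 h (-0.88 ± 0.27, adjusted p = 0.0275, and -0.86 ± 0.17, adjusted p = 0.00041) and were higher at 5 days (1.34 ± 0.27, adjusted p = 0.000223, and 0.57 ± 0.17, adjusted p = 0.00809) and 9 days. Tmod1, the tropomodulin that caps its short actin filaments, was 1.36 to 2.27 (median 2.04) in untreated spleens, 0.75, 1.99, 0.60 and 0.76 at 24 h and 2.66, 3.58, 3.65 and 3.05 at 7 days. The 7-day arrays lay above all untreated ones, and 1 array of 24 h stood apart from the other 3, within the untreated range. Its differences were -0.93 ± 0.35 (adjusted p = 0.0797) at 24 h and 1.28 ± 0.35 (adjusted p = 0.00977) at 7 days.

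Sptb, the beta chain of red cell spectrin, was the 1 member higher at 3 h (1.20 ± 0.19, adjusted p = 1.2e-05) and at 9 h (0.88 ± 0.19, adjusted p = 0.00163), and this came from 1 of its 2 features. The second feature was -0.95 to -0.23 (median -0.70) in untreated spleens, -0.71, -0.44, -1.53 and -0.29 with control ODN and 2.05, 1.75, 2.33 and 1.98 with CpG ODN at 3 h. No CpG 3 h array overlapped either group, and the feature was higher by 2.66 (adjusted p = 1.31e-09) than in untreated spleens and by 2.77 (adjusted p = 6.96e-09) than with control ODN. The first feature, with a mean ratio of 2.80 against 0.41 for the second, differed by -0.26 (adjusted p = 0.721) at 3 h and by -1.54 (adjusted p = 0.000592) from control ODN. At 24 h it fell by 1.20 on the log2 scale while the second stood 1.46 (adjusted p = 0.000404) higher. Of the 4 times from 72 h to 9 days, the first feature was called higher at 0 and the second at 4. The calls of the Sptb mean at 72 h, 5 days and 9 days were lost when the first feature was read alone. The 2 features of Sptb thus differed in sign at 3 h and at 24 h, and which of them follows the red cell transcript was not tested.

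The surface antigens held both the largest fall (Aqp1 at 24 h) and the largest rise (Kel at 5 days) of any member against untreated spleens. Of 9 such genes, 4 were lower at 24 h (median -0.86), and 4 were higher at 72 h, 4 at 5 days, 6 at 7 days and 4 at 9 days (medians 0.76, 0.66, 0.68 and 0.65). Kel, the Kell blood group glycoprotein, an early antigen of the lineage, was 1.92 to 3.47 (median 2.63) in untreated spleens and 1.33, 1.41, 1.33 and 1.79 at 24 h, and then 4.02, 4.14, 4.93 and 2.83 at 72 h and 3.63, 4.62, 5.28 and 4.90 at 5 days. The 24 h arrays lay below every untreated array and the 5-day arrays above every one, while at 72 h 1 array lay inside the untreated range. The differences were -1.15 ± 0.36 (adjusted p = 0.0315), 1.37 ± 0.36 (adjusted p = 0.00885) and 2.00 ± 0.36 (adjusted p = 6.34e-05), and 1.75 ± 0.36 (adjusted p = 0.000941) at 9 days.

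Aqp1, the water channel of red cells and also of endothelium, fell most of all members at 24 h. It was 2.40 to 3.13 (median 2.62) in untreated spleens, 0.62, 1.54, 0.14 and 1.09 at 24 h and 3.31, 3.68, 3.95 and 3.51 at 7 days. No array of 24 h reached the untreated range, and those of 7 days all lay above it. The fall was -1.83 ± 0.29 (adjusted p = 2.61e-05), present in both features (-1.51 and -2.16), and the rise at 7 days 0.93 ± 0.29 (adjusted p = 0.0257).

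Rhd and Rhag, subunits of the Rh complex, were called at different times and were not tested against each other. Rhd was 4.88 to 5.52 (median 5.17) in untreated spleens and 3.14, 4.66, 3.80 and 3.73 at 24 h, with no overlap. It fell by 1.32 on the log2 scale (adjusted p = 0.0245). Rhd was called at no later time against untreated spleens, although its highest group mean, 6.07 at 72 h, lay above the untreated range. Rhag differed by -0.38 ± 0.27 (adjusted p = 0.393) at 24 h and rose at 9 days by 0.93 ± 0.27 (adjusted p = 0.0167). Icam4, the LW adhesion antigen, rose without a called fall. It was 0.90 to 1.66 (median 1.14) in untreated spleens, 0.85, 0.79, 0.82 and 0.89 at 24 h and 3.06, 3.01, 2.82 and 2.87 at 5 days. Every 24 h array lay below every untreated one, the highest only just, and every 5-day array lay above. Its rise was 1.76 ± 0.20 (adjusted p = 7.47e-08), and both its features showed it (1.61 and 1.90).

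Tspan33, a tetraspanin of erythroid progenitors, and Cldn13, a claudin of mouse erythroid cells, rose as well, by 1.65 ± 0.26 (adjusted p = 1.36e-05) and 1.28 ± 0.32 (adjusted p = 0.00225) at 5 days, the former over 3 arrays. Ermap, the Scianna blood group protein, was called higher at no time after CpG ODN, with -0.73 ± 0.29 (adjusted p = 0.0961) at 24 h and -0.01 ± 0.29 (adjusted p = 0.982) at 5 days. Cd24a, a surface glycoprotein of erythroblasts and also of B cells, fell at 24 h by 0.88 on the log2 scale (adjusted p = 0.00694) and rose at 7 days (0.65 ± 0.22, adjusted p = 0.0401). Of 11 measured B cell markers, 1 was lower at 24 h and 6 at 7 days (medians -0.10 and -0.58). Their mean ratio ran from 2.59 to 3.26 in untreated spleens, 2.56 to 3.08 at 24 h and 2.15 to 2.42 at 7 days, and their part in the change of Cd24a was not tested.

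The 4 enzymes gave 4 patterns. Car1, carbonic anhydrase 1, was 4.37 to 5.82 (median 5.16) in untreated spleens, 5.37, 4.92, 5.48 and 5.22 at 24 h, 6.68, 6.56, 6.22 and 5.49 at 72 h and 6.02, 6.45, 6.92 and 6.52 at 5 days. The 24 h arrays lay within the untreated range and the 5-day arrays above it, and the differences were 0.11 ± 0.29 (adjusted p = 0.853), 1.10 ± 0.29 (adjusted p = 0.0102) and 1.34 ± 0.29 (adjusted p = 0.000622). Mgst3, a microsomal glutathione transferase, had the widest swing of the members, 3.20 log2 units between its lowest and highest group mean. It was 1.06 to 2.18 (median 1.49) in untreated spleens, -0.46, 0.92, -0.14 and -0.01 at 24 h, 3.14, 3.26, 3.17 and 3.55 at 5 days and 3.01, 3.25, 3.14 and 3.01 at 7 days. At 24 h every array was below every untreated one and at 5 and 7 days above, and its differences were -1.53 ± 0.32 (adjusted p = 0.00121), 1.68 ± 0.32 (adjusted p = 0.000153) and 1.50 ± 0.32 (adjusted p = 0.00118).

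Car2, carbonic anhydrase 2, fell at 24 h (6.48, 6.86, 5.83 and 6.29 against 7.00 to 7.62, median 7.41 in untreated spleens, without overlap) by 1.00 on the log2 scale (adjusted p = 0.00575). Afterwards its mean stayed within 0.4 log2 units of untreated, but its first feature was lower at 5 days (-0.76, adjusted p = 0.0293) and at 7 days (-0.98, adjusted p = 0.00988) while the second was not (0.34 and 0.54). Bpgm, the mutase that makes the red cell's 2,3-bisphosphoglycerate, was called in none of the 13 comparisons. It was -0.13 to 0.81 (median 0.16) in untreated spleens and -0.29, -0.19, -0.07 and 0.12 at 5 days, a difference of -0.41 ± 0.21 (adjusted p = 0.132) after -0.20 ± 0.21 (adjusted p = 0.588) at 24 h.

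Differences between times used no untreated array, although the untreated arrays entered the estimate of the spread that all groups share. From 9 h to 24 h 8 of 31 members fell and 0 rose (background 3.31% lower, 6.39% higher; median -0.53). They were Nfe2, Hemgn, Slc4a1, Sptb, Dmtn, Ermap, Aqp1 and Car2. Aqp1 was 2.02, 2.70, 1.57 and 2.18 at 9 h, all above the 24 h arrays, and fell by 1.27 on the log2 scale (adjusted p = 0.0105). Slc4a1 was 3.28, 3.45, 2.41 and 3.00 at 9 h, likewise above all arrays of 24 h, and fell by 1.06 (adjusted p = 0.00597). Of these groups, 4 arrays of 9 h and 3 of 24 h belong to 1 run, and within it 27 of 31 members were lower at 24 h. The share of all genes lower within that run was not computed. The count rests on single arrays: 1 member was called without the third array of 24 h, and 5 without array 2 or array 4 of 9 h.

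From 24 h to 72 h the members rose more often than in any other of the 13 comparisons: 21 of 31 were higher and 0 lower, where 3.6% of all genes were higher and 1.9% lower, with a median of 1.22 against -0.03 over all genes. Kel rose by 2.51 ± 0.39 (adjusted p = 7.59e-05), Mgst3 by 2.40 ± 0.35 (adjusted p = 5.46e-05), Rhd by 2.24 ± 0.43 (adjusted p = 0.000837), Klf1 by 2.12 ± 0.42 (adjusted p = 0.0012) and Tal1 by 2.06 ± 0.36 (adjusted p = 0.000274). For Kel, Mgst3 and Rhd no array of 24 h reached the lowest of 72 h, and for Klf1 1 array of 24 h did. By role, 6 of 9 factors and receptor genes rose, 5 of 7 membrane genes, 8 of 9 surface antigens, 2 of 4 enzymes and 0 of 2 globins. The 10 not called were Zfpm1, Gfi1b, Epor, Hbb-b1, Hba-a1, Epb42, Sptb, Rhag, Car1 and Bpgm. The 24 h and 72 h arrays lie in different runs, so that here too run and group cannot be told apart.

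The 7-day and 14-day arrays share 1 run. Between them 9 of 31 members were higher at 7 days and 0 lower, beside a background of 10.8% in each direction, and the median was 0.50. The 9 were Tal1, Zfpm1, Hemgn, Ank1, Kel, Icam4, Cldn13, Aqp1 and Mgst3. Mgst3, at 1.81, 0.85, 1.73 and 1.14 on day 14 against 3.01, 3.25, 3.14 and 3.01 on day 7, did not overlap and differed by 1.72 ± 0.35 (adjusted p = 0.000746), and Tal1 by 1.18 ± 0.36 (adjusted p = 0.0167). In the same run 26 of 31 members were higher at 7 days, and 26 at 72 h, than at 14 days. The share of all genes going these ways was not computed. Without the second array of 14 days 2 members were called between 7 and 14 days, and without the second of 7 days 5.

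With control ODN 1 of 31 members was higher than in untreated spleens and 0 were lower (background 2.45% and 1.07%). The median difference was 0.28 against 0.06 over all genes. The 1 called was Ermap, 4.09, 4.82, 4.84 and 4.06 with control ODN against 3.05 to 4.00 (median 3.51) untreated, without overlap (0.97 ± 0.29, adjusted p = 0.0493). Epor's first feature was higher by 1.12 (adjusted p = 0.0433) with control ODN, while its mean was not called (0.64). Nfe2 was 4.55, 5.21, 5.72 and 5.30 with control ODN and missed the threshold at 0.97 ± 0.30 (adjusted p = 0.0531). Against control ODN at the same 3 h, 4 of 31 members were lower with CpG ODN and 1 was higher (median -0.49). This is close to the background of 11.5% lower and 9.23% higher. The groups share no run, so run and group cannot be told apart here. The lower ones were Lmo2 (-0.69), Nfe2 (-1.20), Dmtn (-0.49) and Ermap (-1.05), and the higher one was Sptb (0.61) by its second feature. The first control ODN array had a member mean of 2.46 beside 3.14 to 3.35 on the other 3, and without it 9 members were called between CpG and control ODN at 3 h. Without the third control array 2 were called, and without the second control array or array 3 or 4 of CpG 3 h, 3. The call of Ermap against untreated spleens was lost, leaving 0, without any of 8 of the 10 arrays compared.

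Runs and single arrays bore on these counts. With runs as a fixed block, on 27 members with a value on every array, 1 was called at 24 h (Aqp1, -2.76 ± 0.71, adjusted p = 0.0474). Of the 27, 26 were lower, with a median difference of -1.30 and a median standard error of 0.59. In that fit 25 were also lower at 3 h and 24 at 9 h, with a median of -0.68 at each time and 0 called. It ties untreated spleens to the others through untreated array 2 alone, whose member mean (3.09) was the highest of the untreated arrays. Directions over all genes were not counted in it. With runs as a random block 11 of the 27 were lower at 24 h, and 9, 13, 10 and 16 higher at 72 h, 5, 7 and 9 days. Quantile scaling between arrays gave 19 members lower at 24 h and 9 higher at 9 days, and array weights gave 22 at 72 h. Without the third array of 24 h, 6 members were called lower at that time. Without the third array of 72 h, 6 were called higher at 72 h, and without the 8 arrays that lack over 1000 values, 3, with 9 at 5 days. Without the fourth array of 9 days, 9 were called there. At 7 days 7 were called without the third array of that time, 9 without the second, 8 without untreated array 4 and 9 without untreated array 5.

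Features of 1 gene did not always move alike. Of the 31 members, 11 had more than 1 feature, and in 61 of their 143 comparisons the features differed in sign. Hemgn's first feature (3.37 over all arrays) rose at 72 h (1.05, adjusted p = 0.041), 5 days (1.12, adjusted p = 0.0142) and 7 days (1.29, adjusted p = 0.00992), times at which the second (-0.08) gave -0.43, -0.40 and -0.53, and the mean was not called. Dmtn's second feature (3.25) fell at 24 h by 1.81 on the log2 scale and rose at 72 h by 1.09 (adjusted p = 0.0448), whereas the mean over its 3 features gave 0.14 at 72 h. The fall of Slc4a1 at 24 h was -1.61 in its first feature (5.65) and -0.14 in its second (0.30), whereas at 9 days they differed by 0.35 and 0.80. Rhag's features 2 and 3 rose at 7 days (1.08, adjusted p = 0.0104, and 1.10, adjusted p = 0.017) and feature 1 was not called (-0.20).

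**Figure D4:**
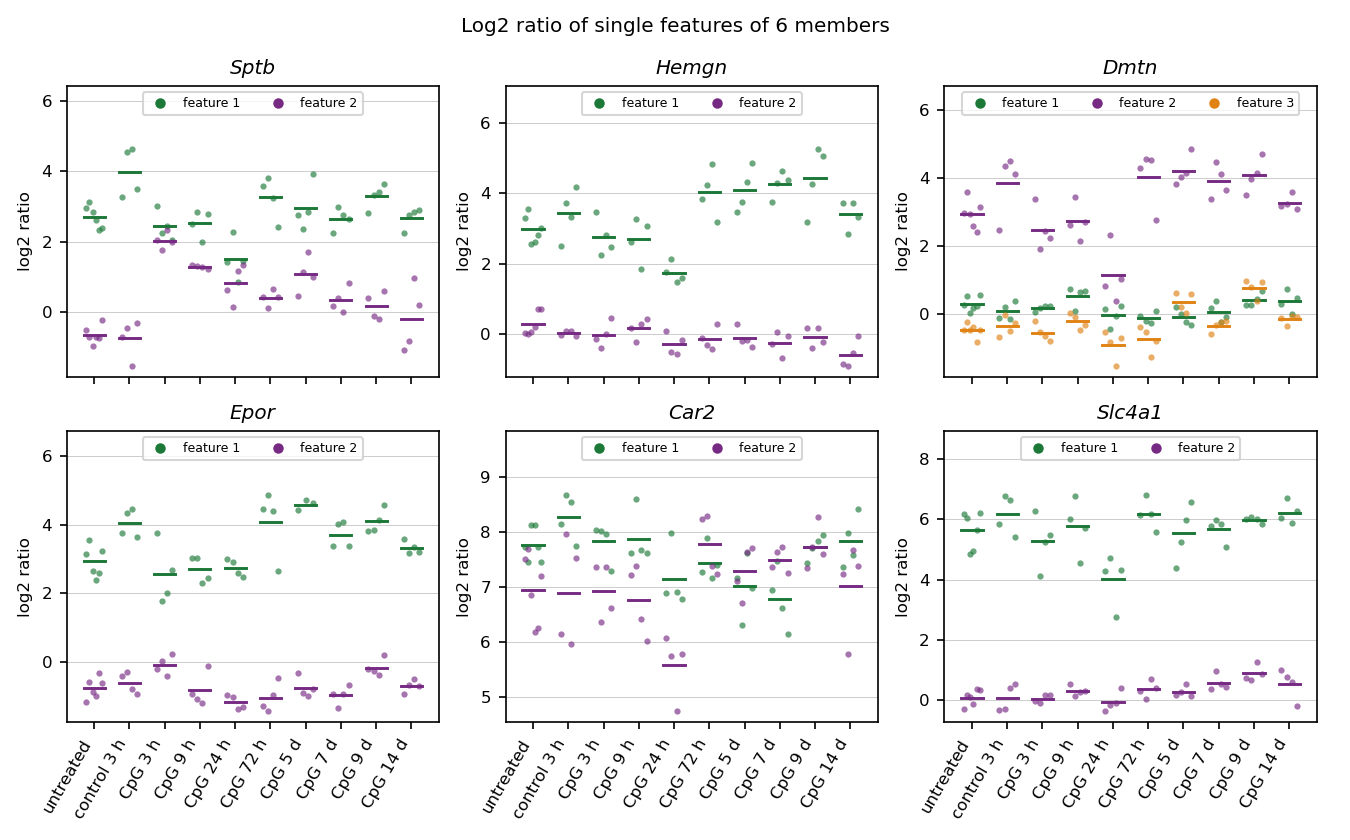
Log2 ratio of each single feature of 6 members on every array (vertical axis, scaled for each gene), 1 colour per feature, with a bar at the group mean. The second feature of Sptb rises at CpG 3 h while the first dips at 24 h, and in Hemgn, Dmtn and Slc4a1 the feature with the highest ratio dips at 24 h further than the features with ratios near 0.

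With each member read from its feature of the highest mean ratio, 11 of 31 members were lower at 24 h, and 14, 18, 15 and 17 were higher at 72 h, 5, 7 and 9 days. Then 0 were called at 3 h or 9 h, and 1 was lower at 5 and at 7 days. For Sptb this turned the differences at 3 h and 9 h to -0.26 and -0.16, neither of them called.

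Other genes of the programme had calls at these times as well. Of 15 measured genes of haem synthesis and erythroid iron uptake, 9 were lower at 24 h, 5 higher at 72 h, 13 higher and 1 lower at 5 days, 12 higher and 1 lower at 7 days and 9 higher at 9 days (medians -0.76, 0.44, 1.00, 0.93 and 0.85). At 24 h Slc25a37, the mitochondrial iron importer, differed by -1.72 ± 0.28 and Fech, ferrochelatase, by -1.59 ± 0.31. At 5 days Tfrc, the transferrin receptor, rose by 1.71 ± 0.34, while the 1 gene lower was Alas2, the erythroid enzyme that starts haem synthesis (-1.48 ± 0.37, and -1.26 ± 0.37 at 7 days). Alas2, in contrast, was higher with control ODN (1.27 ± 0.37).

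Of other red cell genes, 9 of 17 tested were lower at 24 h, 7 of 18 higher and 2 lower at 5 days, and 8 of 18 higher at 7 and at 9 days. Fn3k, fructosamine 3-kinase, differed by -1.73 ± 0.33 at 24 h and 2.17 ± 0.33 at 5 days, and Xk, the partner of Kell in the membrane, rose by 1.83 ± 0.26 at 5 days. Of 24 other erythroid regulators 0 were called at 24 h, and 10 were higher and 1 lower at 5 days, among them Erfe, erythroferrone, which erythroblasts secrete under erythropoietin (1.63 ± 0.26), and Ccnd3, cyclin D3 (1.20 ± 0.22).

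**Figure D5:**
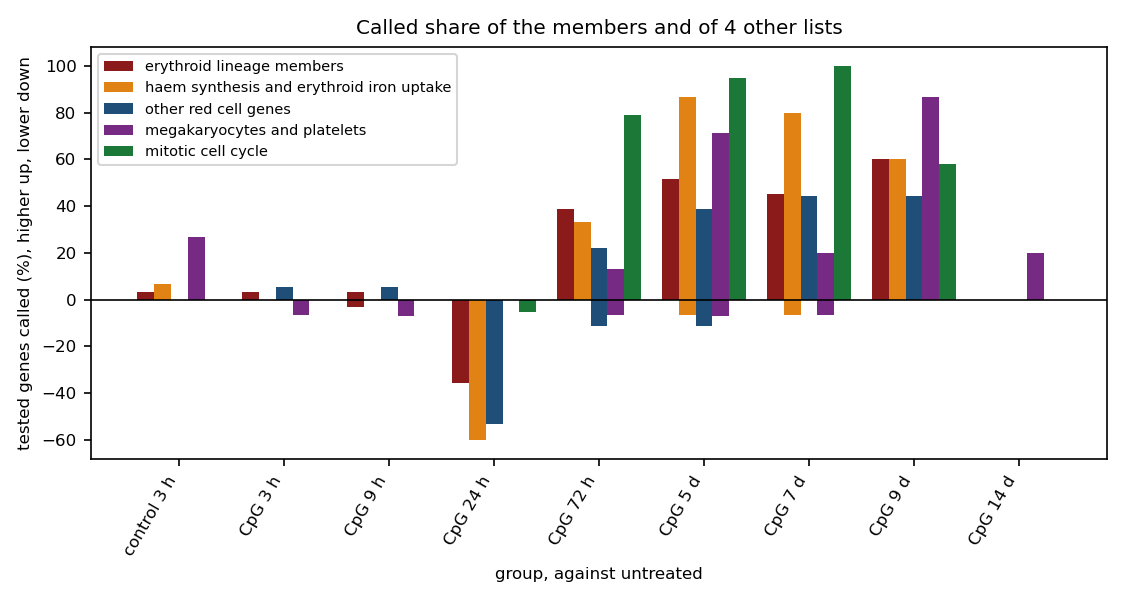
Share of tested genes called against untreated spleens (vertical axis, percent; higher above 0, lower below) for the erythroid members and 4 other lists in each group. The members, the haem list and the other red cell genes fall at 24 h, when 0 megakaryocyte genes and 1 mitotic gene are called, and all 5 lists have genes called higher from 72 h to 9 days.

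Lists of other cells moved at some of these times. Of 19 mitotic cell cycle genes, 1 was lower at 24 h and 15, 18, 19 and 11 were higher at 72 h, 5, 7 and 9 days, and their mean ran from -0.52 to 0.14 in untreated spleens to 0.81 to 1.17 at 5 days. Of the megakaryocyte and platelet genes, 0 of 14 tested were called at 24 h, 10 of 14 were higher and 1 lower at 5 days, and 13 of 15 were higher at 9 days, with a mean of 1.43 to 2.01 in untreated spleens, 1.56 to 2.15 at 24 h, 2.25 to 2.89 at 5 days and 2.46 to 3.05 at 9 days. Vwf, von Willebrand factor, differed by 1.96 ± 0.31 at 9 days. Their part in the rise of Gata1, Tal1, Zfpm1 and Nfe2 was not tested.

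Red pulp macrophage genes, of the cells that take up old red cells, were called in the other direction at 24 h: 4 of 16 were higher and 0 lower, led by Cd5l (2.98 ± 0.44) and with Spic, the factor of these macrophages, at 1.18 ± 0.22. Their mean was 2.78 to 3.28 in untreated spleens and 3.37 to 3.73 at 24 h, without overlap. Of T cell genes, 2 of 13 were lower at 24 h, and 9 lower and 1 higher at 5 days, and of 15 neutrophil genes 5 were higher at 24 h and 12 at 9 days. The part of these cells in the members' changes was not tested.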

How the data were processed

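Spleen RNA was labelled with Cy5 and a universal mouse reference with Cy3, per the labels' protocols, and hybridised together on 2-colour arrays. The authors deposited log2 ratios, with the array medians between -0.014 and 0.019. Base and direction were inferred from the values, since genes of B cells and red cells had high ratios, and the sources used here state no background correction, spot filter or normalization.

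Of 30601 features, 23485 had 1 gene symbol in the platform annotation, 179 had several and 6937 none. Features were averaged by symbol into 15277 genes, and members were matched by that symbol. limma 3.58.1 in R 4.3.3 fitted all 42 arrays with 1 coefficient per group. Genes with at least 3 values in each group were tested 2-sided and adjusted by Benjamini-Hochberg within a comparison, over genes or, where stated, over features. The number of arrays limits the precision. Figures were drawn with matplotlib 3.10.9. The fit was tested on simulated data.

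The members and lists were chosen with earlier results of these data known. Values on every array were given for the members with the largest difference in a role and comparison and for Gata1, Klf1, Epor, Slc4a1, Car1 and the globins, and at most 4 called genes of another list were named in a comparison. The alternatives were quantile scaling, genes on all arrays, medians over features, groups alone, array weights, blocks for replicate number and run, and arrays left out. Replicate numbers did not pair the arrays. No 2 arrays held the same values.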

Additional observations from a re-analysis of the deposited data

Results flagged for a closer look

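Of 305 groups of arrays of a member, 19 held 1 array far from the rest of its group by Dixon's criterion, and chance sets apart about 1 in 20 groups. Among the factors these were Klf1 on the fourth array of 72 h (log2 ratio 4.86), Gfi1b on the third of 5 days (1.12), and Epor on the fourth of 5 days (-0.79, where its first feature has no value) and the fourth of 9 days (2.38). Hba-a1 stood apart on the second array of 9 h (4.10). Of the membrane genes, Slc4a1 did on the third array of 9 days (3.63), Ank1 on the first of 3 h (2.21), Sptb on the fourth of 72 h (1.42) and the fourth of 9 days (2.12), and Tmod1 on the first untreated array (1.36), the third of 9 h (1.22) and the second of 24 h (1.99). Of the surface antigens, Rhd did on the first control ODN array (4.31), Kel on the first of 7 days (3.26), Ermap on the fourth of 5 days (3.77), Icam4 and Aqp1 on the second of 14 days (0.99 and 1.87), and Cd24a on the sixth untreated array (4.76) and the second of 24 h (3.69).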

How the results depend on the processing

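Of 2271 repeats of the 118 called member differences under other settings, 1967 kept direction and call, 299 kept the direction and lost the call, and 5 turned. These were Sptb with its feature of the highest mean ratio (-0.26 at 3 h, -0.16 at 9 h, -1.54 at 3 h against control ODN), and Dmtn with the median over features (0.10 at 3 h against control ODN, -0.081 from 24 h to 72 h). Both follow from taking other features.

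Counts of called members moved under these settings, and unless stated the cause was not tested. Quantile scaling gave 2 at 3 h, 19 at 24 h, 9 at 9 days and 0 with control ODN. Runs as a fixed block gave 0 at 3 h, 0 at 9 h and 1 at 24 h, on 27 members, and could not be fitted between groups that no chain of shared runs connects; as a random block, control ODN fell to 0. The replicate block, not part of the design since the numbers do not pair the arrays, gave 1 at 9 h and 0 with control ODN. Of 180 pairs of arrays with the same number, 63 had deviations correlated above 0.1. Array weights gave 22 at 72 h, 2 with control ODN and 15 between 7 and 14 days. Without the arrays lacking over 1000 values, with fewer arrays, 3 were called at 72 h, 9 at 5 days, 0 with control ODN and 0 between 7 and 14 days. Groups fitted alone, with fewer samples, gave 0 with control ODN, 3 at 3 h against control ODN and 1 from 9 h to 24 h, and genes on all arrays 2 with control ODN. Chosen after seeing the data, features on every array gave 2 at 3 h, and the feature of the highest mean ratio gave 0 at 3 h, 0 at 9 h, 1 at 14 days, 3 with control ODN and 8 at 3 h against control ODN.

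Leaving out 1 array at a time gave 1 to 1 called at 3 h, 1 to 3 at 9 h (main 2, and 1 without untreated array 1, 2, 3 or 6 or 9 h array 1, 3 or 4), 6 to 13 at 24 h, 6 to 17 at 72 h, 14 to 17 at 5 days, 7 to 14 at 7 days, 9 to 18 at 9 days and 0 to 0 at 14 days. It gave 0 to 2 with control ODN (2 without untreated array 3 or control array 4), 2 to 9 at 3 h against control ODN, 1 to 10 from 9 h to 24 h, 20 to 25 from 24 h to 72 h and 2 to 11 between 7 and 14 days. With 4 arrays in most groups, the smallest difference called was 0.47 log2 units, and signal over background is not known for any feature.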
